A study of Mus musculus with 24 samples.

Results

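The OAS family comprises the 2′-5′-oligoadenylate synthetases and their like proteins, and its 8 members here were the rows with the symbols Oas1a, Oas1b, Oas1c, Oas1g, Oas2, Oas3, Oasl1 and Oasl2, among 25229 genes of the count table. All 8 were among the 12941 genes with enough reads to be tested. RNA was sequenced from ID8 Trp53−/− cells (ID8 P53 KO in the labels), a mouse ovarian cancer cell line lacking the tumour suppressor p53, in 4 groups of 6 libraries. The groups were cells kept for 6 days in DMSO (the solvent), in AU-15330 at 2.5 uM, in cisplatin at 750 nM, or in both drugs at these doses (the combination), and the loss of p53 was shared by all 4. The cisplatin dose is that of the labels, and the study's methods state another concentration for these cells. AU-15330 is a degrader that directs the chromatin remodelling ATPases SMARCA4 and SMARCA2 to the proteasome, and cisplatin is a platinum drug that crosslinks DNA, used in the study to induce senescence. A single cell line in culture was used, and the labels do not say whether the 6 replicates of a group came from separate cultures, so p-values measure the spread between these libraries, which may be technical. The members were chosen by gene name, in a family selected on the measured response of Oas2 to cisplatin and the way AU-15330 altered it. The differences between cisplatin and DMSO, and the change in the effect of AU-15330 when cisplatin was present, are therefore given as description with no p-value, as are all differences of Oas2. The combination against cisplatin is a part of that change, so p-values of the other members in it are not free of the choice.

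OAS enzymes are made by most cells in response to interferon. When they bind double-stranded RNA they join ATP into short chains with 2′-5′ bonds, called 2-5A, a messenger that leads to the decay of viral and cellular RNA. Oas1, Oas2 and Oas3 proteins differ in how many copies of the synthetase unit they carry, whereas Oasl1 and Oasl2 carry ubiquitin-like repeats as well. Mouse Oasl1 has lost the synthetase activity and is known as a brake on the translation of Irf7, and Oasl2 has kept it.

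The libraries held 17592588 to 25260009 reads assigned to genes, each the sum of 2 sequencing lanes. Levels are CPM, counts divided by the library total after TMM scaling, and 3 reads corresponded to 0.120 to 0.186 CPM depending on the library. A gene was called different when its adjusted p-value from edgeR's quasi-likelihood test, corrected over all 12941 tested genes, was under 0.05. AU-15330 removes protein, so the mRNA of its targets was no check of the labels. These are bulk samples, in which fewer cells with a transcript and less transcript per cell cannot be told apart.

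The 8 genes lie in 2 places on chromosome 5 (GRCm38). Oas2 (chr5:120730333-120749853, minus strand) and Oas3 (chr5:120753098-120777661, minus strand) stand next to each other, followed by Oas1c (chr5:120800194-120812514, minus strand), Oas1b (chr5:120812635-120824163, plus strand), Oas1g (chr5:120876142-120887613, minus strand) and Oas1a (chr5:120896256-120907521, minus strand). Oasl2 (chr5:114896936-114912234) and Oasl1 (chr5:114923240-114937915) lie on the plus strand in a separate region. The annotation lists Oas1b as a polymorphic pseudogene, since C57BL/6 mice, the strain from which ID8 cells derive, carry a truncating stop codon in it. The remaining Oas1 rows of the table, Oas1d, Oas1e, Oas1f and Oas1h, had at most 4 reads in any library and were not tested.

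The similarity of the Oas1 copies limits how well their reads can be told apart. Of all 70-base stretches (the read length) of annotated Oas1a transcripts, 49.2% also occurred in Oas1g, and 38.4% of those of Oas1g occurred in another gene. The share was 0.29% for Oas1b and 8.09% for Oas1c, of which 2.64 percentage points were shared with other OAS genes and the rest with Gm43069, an antisense transcript. For Oas2, Oas3, Oasl1 and Oasl2 it was 0%. Levels of Oas1a and Oas1g are therefore uncertain relative to each other. An unclassified transcript, Gm43068, overlaps Oas2 on the other strand, the antisense Gm13822 overlaps the start of Oasl1, and it is not known whether the counting used strand.

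RefSeq promoter windows (250 bases before to 50 after the start, GRCm38.p6) were at hand for 6 of the 8 genes, all but Oas2 and Oas1b. They were searched on both strands for the interferon-stimulated response element (ISRE, the letters GAAA, then any 2 bases, then GAAA), the gamma-interferon activated site GAS (TTCNNNGAA) and the AP-1 site (TGANTCA), motifs chosen after earlier results of these data were known. The ISRE letters occurred in 3.44% of all 32851 windows, GAS in 8.3% and AP-1 in 7.81%. The 120 bases before the start are shown for the 4 genes whose windows held an ISRE, because these genes responded differently to the drugs, with the ISRE in capitals. All run 5′ to 3′ along the gene, which is the minus strand: Oas1a at chr5:120907526-120907645, Oas1g at chr5:120887614-120887733, Oas1c at chr5:120812515-120812634 and Oas3 at chr5:120777660-120777779.
Oas1a: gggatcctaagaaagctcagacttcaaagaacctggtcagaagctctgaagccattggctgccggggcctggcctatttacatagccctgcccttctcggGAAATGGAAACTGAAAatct
Oas1g: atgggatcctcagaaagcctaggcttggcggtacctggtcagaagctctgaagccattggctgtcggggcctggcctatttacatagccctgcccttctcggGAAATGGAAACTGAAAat
Oas1c: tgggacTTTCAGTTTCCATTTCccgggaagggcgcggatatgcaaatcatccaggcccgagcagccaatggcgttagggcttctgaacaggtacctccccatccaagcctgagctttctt
Oas3: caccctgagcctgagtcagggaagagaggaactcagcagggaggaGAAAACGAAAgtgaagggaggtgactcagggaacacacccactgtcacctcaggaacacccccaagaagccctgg

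In Oas1a the ISRE matched at bases -20 to -11 and again, overlapping the first match, at -14 to -5, counted from the transcription start as 0. In Oas1g the matches fell at -18 to -9 and -12 to -3, and the windows of these 2 genes were identical at 261 of 294 aligned bases (88.8%). The 16 letters that the matches span in Oas1a also stood in Oas1c, read on the opposite strand, at -114 to -99. Since the interval printed for Oas1c is the whole 120 bases between the start of Oas1c and that of Oas1b on the other strand, this stretch lies close to the start of Oas1b. The same 16 letters were found in 7 of the 32851 windows, those of Oas1a, Oas1c, Oas1g and the Apol9a and Apol9b genes. The Oas3 window held a different ISRE match at -75 to -66, with AP-1 matches on either side at -109 to -103 and -54 to -48. A GAS match was present in Oas1a (-98 to -90). The Oasl1 and Oasl2 windows held no match to any of the 3 motifs. A match describes the sequence and does not show that a factor binds there.

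Oas2 and Oas3 were high in the cells given cisplatin alone and low in the other groups, at most 2.32 CPM. Oas2 measured 0 CPM in its lowest DMSO library, 0.317 in the median and 0.627 in the highest. With AU-15330 it ranged from 0.238 to 0.945 CPM (median 0.491), with cisplatin from 130 to 311 (median 205), and with the combination from 1.04 to 2.32 (median 1.21). Every cisplatin library thus lay far above every library of the other groups. The 6 DMSO libraries together held 36 Oas2 reads and the 6 cisplatin libraries 30230. The fitted log2 difference between cisplatin and DMSO was 9.44 ± 0.38 (SE, n = 6 per group), which rests on these few DMSO reads. With AU-15330 added to cisplatin, Oas2 was 147-fold lower than with cisplatin alone (log2 difference −7.20 ± 0.32). The combination libraries lay above every DMSO and AU-15330 library, with differences of 2.24 ± 0.52 from DMSO and 1.39 ± 0.45 from AU-15330. The latter was 1.11 ± 0.48 without the libraries of replicate 6 and 0.72 ± 0.33 in replicates 1 to 3 alone. AU-15330 alone and DMSO overlapped, with a fitted difference of 0.85 ± 0.63, of 2.80 in replicates 1 to 3 alone and of −0.70 in replicates 4 to 6 alone. No call is given for it, since Oas2 had too few reads to be tested in these 2 groups alone and passed the filter on low counts through the other groups.

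Oas3, which senses long double-stranded RNA, followed the same course. Its levels were 0.186 to 0.511 CPM in DMSO (median 0.412), 0.0953 to 0.360 with AU-15330 (median 0.172), 73.0 to 159 with cisplatin (median 124) and 0.727 to 1.35 with the combination (median 0.981). The cisplatin libraries did not overlap any other group, and the combination libraries stood above DMSO and AU-15330 without overlap but at low levels. The cisplatin libraries held 16871 Oas3 reads, against 46 in DMSO, 27 with AU-15330 and 131 with the combination. Cisplatin exceeded DMSO by 8.26 ± 0.26 on the log2 scale. The combination was 118-fold below cisplatin (−6.89 ± 0.23, adjusted p = 5.14e-19, edgeR) and above AU-15330 alone (2.23 ± 0.40, adjusted p = 7.16e-05, edgeR). The difference between AU-15330 and DMSO was −0.86 ± 0.49. It did not pass the threshold, but did with DESeq2 (−0.88 ± 0.40) and without replicate 1 (−1.22 ± 0.52). No call is given, since like Oas2 the gene had too few reads to be tested in these 2 groups alone.

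**Figure D1:**
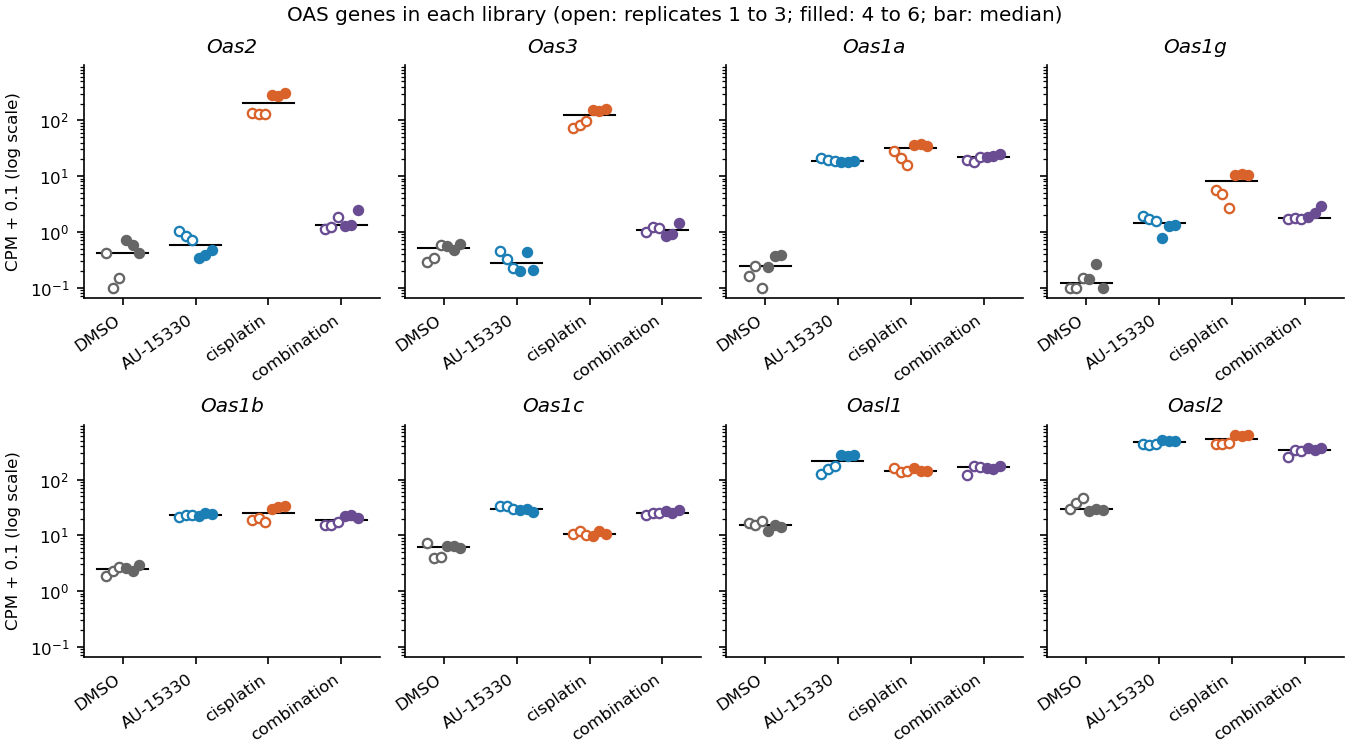
Level of each OAS gene in each of 24 libraries, as CPM plus 0.1 on a log axis, by treatment, with open points for replicates 1 to 3, filled points for replicates 4 to 6 and a bar at the median. Oas2 and Oas3 reached 73.0 to 311 CPM with cisplatin and at most 2.32 elsewhere, whereas Oas1a, Oas1b, Oasl1 and Oasl2 were raised in all 3 drug groups.

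Oas1a, an active synthetase, was nearly silent in DMSO and was higher with either drug. DMSO libraries held 0 to 0.279 CPM (median 0.140), a total of 18 reads. AU-15330 libraries held 17.5 to 21.3 CPM (median 18.8), cisplatin libraries 15.8 to 37.1 (median 31.4) and combination libraries 17.9 to 25.0 (median 21.8). The 3 drug groups overlapped one another and none overlapped DMSO. The log2 difference from DMSO was 6.92 ± 0.29 with AU-15330 (adjusted p = 3.20e-17, edgeR) and 7.53 ± 0.29 with cisplatin. The combination differed little from AU-15330 (0.19 ± 0.16, adjusted p = 0.375, edgeR) and was 1.34-fold below cisplatin (−0.42 ± 0.16, adjusted p = 0.0235, edgeR). This last call was lost without replicate 4 (−0.36 ± 0.19, adjusted p = 0.10, edgeR), replicate 5 (−0.36 ± 0.18, adjusted p = 0.086, edgeR) or replicate 6 (−0.41 ± 0.18, adjusted p = 0.0508, edgeR).

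Oas1g, the neighbour and close copy of Oas1a, was low throughout and highest with cisplatin. It had 5 reads in all in DMSO (0 to 0.162 CPM). Its level was 0.667 to 1.80 CPM with AU-15330 (median 1.34), 2.58 to 10.8 with cisplatin (median 7.93) and 1.58 to 2.83 with the combination (median 1.70). AU-15330 raised it over DMSO (4.81 ± 0.60, adjusted p = 8.19e-08, edgeR), and the combination was 3.85-fold below cisplatin (−1.95 ± 0.29, adjusted p = 1.88e-06, edgeR), although the highest combination library exceeded the lowest cisplatin library. The combination and AU-15330 were not called different (0.53 ± 0.32, adjusted p = 0.198, edgeR). Reads that fit both copies could have moved between Oas1a and Oas1g, and the Oas1 rows were also summed for that reason. That sum also holds Oas1c, which was higher in the combination than with cisplatin (1.27 ± 0.11). It therefore does not show whether Oas1a and Oas1g fell as a pair. Mean levels were 28.8 CPM (Oas1a) and 7.39 (Oas1g) with cisplatin, and 21.5 and 1.92 with the combination. A sum of Oas1a and Oas1g alone was not tested, and summing cannot restore reads that the counting may have left out. For the sum of all 8 Oas1 rows, the log2 difference was 3.18 ± 0.15 between AU-15330 and DMSO, 3.16 ± 0.15 between cisplatin and DMSO and −0.08 ± 0.13 between the combination and cisplatin.

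Oas1b and Oas1c, whose starts are 120 bases apart on opposite strands, responded differently. Oas1b measured 1.73 to 2.79 CPM in DMSO (median 2.35), 21.5 to 24.7 with AU-15330 (median 23), 17.4 to 34.0 with cisplatin (median 25.0) and 15.3 to 22.8 with the combination (median 18.9). No library of a drug group overlapped DMSO, and the drug groups overlapped one another. AU-15330 raised Oas1b 9.84-fold (log2 difference 3.30 ± 0.17, adjusted p = 2.39e-15, edgeR), and cisplatin exceeded DMSO by 3.43 ± 0.17. Cisplatin and AU-15330 were not called different (0.14 ± 0.14, adjusted p = 0.395, edgeR). The combination was 1.34-fold below cisplatin (−0.42 ± 0.14, adjusted p = 0.0113, edgeR), a call lost without replicate 6 (−0.34 ± 0.15, adjusted p = 0.0538, edgeR).

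Oas1c was lower with cisplatin than with AU-15330 by 2.82-fold (SE of the log2 difference 0.11, adjusted p = 5.70e-12, edgeR). It was expressed in DMSO at 3.90 to 7.18 CPM (median 6.11), and reached 25.8 to 34.2 with AU-15330 (median 29.6), 9.46 to 12 with cisplatin (median 10.4) and 23.5 to 28.5 with the combination (median 25.2). The AU-15330 and combination libraries overlapped each other, and lay above the cisplatin libraries, which lay above DMSO. AU-15330 raised it 5.41-fold over DMSO (2.43 ± 0.12, adjusted p = 9.36e-16, edgeR). Among the 8 members, Oas1c alone was called higher in the combination than with cisplatin, by 2.41-fold (1.27 ± 0.11, adjusted p = 1.85e-10, edgeR). Cisplatin exceeded DMSO by 0.94 ± 0.12. The combination and AU-15330 were not called different (−0.23 ± 0.11, adjusted p = 0.0989, edgeR), but DESeq2 called them (adjusted p = 0.0393).

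By group medians per kilobase of exon the OAS-like genes were the most abundant members, although Oas2 exceeded Oasl1 in replicates 4 to 6 with cisplatin. Both OAS-like genes were higher in every drug group than in DMSO. Oasl1 measured 12.1 to 18.2 CPM in DMSO (median 15.3), 127 to 277 with AU-15330 (median 219), 136 to 162 with cisplatin (median 144) and 121 to 175 with the combination (median 166). The 3 drug groups overlapped and all lay above DMSO. AU-15330 raised Oasl1 13.8-fold (3.79 ± 0.17, adjusted p = 1.24e-16, edgeR), and cisplatin exceeded DMSO by 3.28 ± 0.17. The combination and cisplatin were not called different (0.10 ± 0.15, adjusted p = 0.583, edgeR). The combination was below AU-15330 (−0.42 ± 0.15, adjusted p = 0.0271, edgeR), but not as a call without replicate 4 (−0.33 ± 0.16, adjusted p = 0.111, edgeR), 5 (−0.34 ± 0.17, adjusted p = 0.125, edgeR) or 6 (−0.36 ± 0.16, adjusted p = 0.0940, edgeR).

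Oasl2 measured 27.6 to 45.8 CPM in DMSO (median 29.4), 414 to 517 with AU-15330 (median 465), 441 to 628 with cisplatin (median 527) and 258 to 376 with the combination (median 343). AU-15330 and cisplatin libraries overlapped, and the combination libraries lay between them and DMSO. AU-15330 raised it 14-fold (3.81 ± 0.14, adjusted p = 1.99e-18, edgeR), and cisplatin exceeded DMSO by 4.00 ± 0.14. The combination was 1.58-fold below cisplatin (−0.66 ± 0.12, adjusted p = 3.60e-05, edgeR) and 1.39-fold below AU-15330 (−0.47 ± 0.12, adjusted p = 0.00331, edgeR).

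Counted over the family, AU-15330 alone raised 6 of the 8 members over DMSO, where 36.2% of all tested genes were called higher, and lowered none, where 37.2% were called lower. The other 2, Oas2 and Oas3, would not have been tested in these groups alone. The median log2 difference of the 8 was 3.55, against −0.0030 for all tested genes. Cisplatin alone was above DMSO for all 8 (background 26%), with a median of 5.64, a contrast that led to the choice of the family. The combination was above DMSO for all 8 (background 36.8%), with a median of 3.18. Between the combination and cisplatin, 6 members were lower (background 32.7%), 1 was higher (Oas1c, background 35.4%) and Oasl1 was not called. Between the combination and AU-15330, Oas2 and Oas3 were higher (background 22.2%), Oasl1 and Oasl2 were lower (background 19.5%) and the 4 Oas1 genes were not called. Between cisplatin and AU-15330, Oas1a, Oas1g, Oas2 and Oas3 were higher with cisplatin (background 37.3%) and Oas1c and Oasl1 lower (background 35.8%). The calls of Oas1a (0.61 ± 0.16) and Oasl1 (−0.51 ± 0.15) were lost when a fold above 1.5 was required, and in replicates 1 to 3 alone these differences were 0.14 and −0.04. Oas2 is included in these counts although its levels led to the choice of the family, and nothing is read from its part in them. These comparisons share their groups and are not independent of each other.

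**Figure D2:**
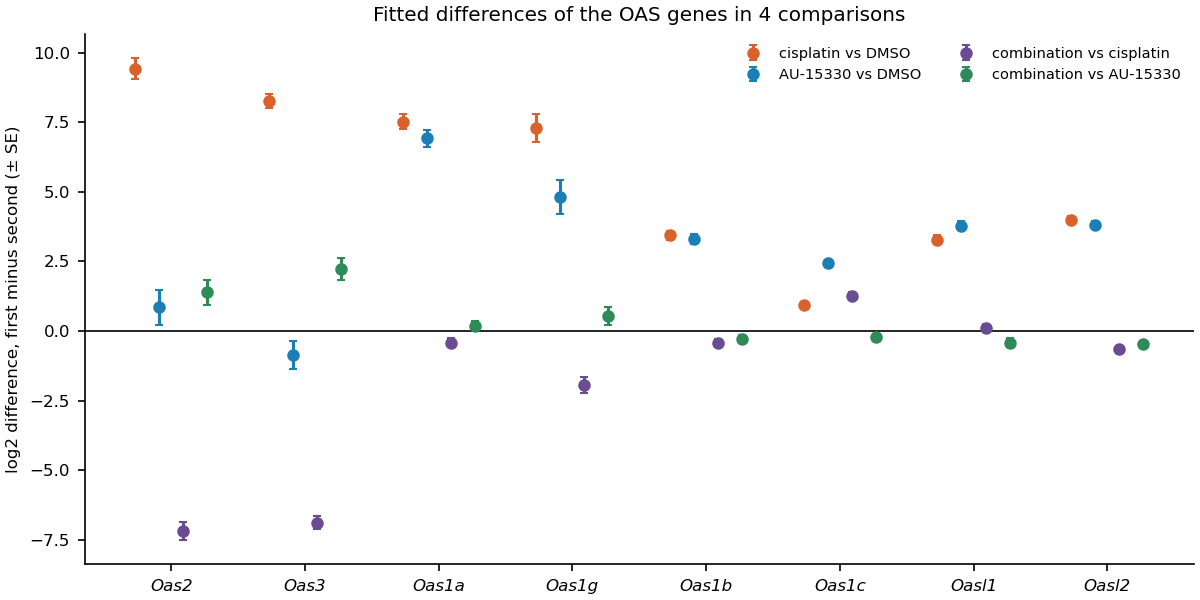
Fitted log2 differences of the 8 OAS genes in 4 comparisons, each the first group minus the second, with bars for the SE over 24 libraries in 1 fit. Oas2 and Oas3 lie at −7.20 and −6.89 for the combination against cisplatin, and the other 6 genes lie between −1.95 and 1.27.

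The effect of AU-15330 depended on whether cisplatin was present. The log2 difference made by AU-15330 with cisplatin, minus that without, was negative for all 8 members, from −1.16 ± 0.16 for Oas1c to −8.05 ± 0.76 for Oas2, where 15.8% of tested genes were called lower. For Oas2 and Oas3 (−6.02 ± 0.70) this came with a loss of the cisplatin level. For Oas1a (−7.34 ± 0.35), Oas1b (−3.72 ± 0.22), Oasl1 (−3.70 ± 0.22) and Oasl2 (−4.47 ± 0.18), each drug alone had raised the level, and the combination differed from either drug by −0.66 to 0.19 on the log2 scale.

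The summed level of the 8 members was lowest in DMSO and highest with cisplatin. The sum had a median of 55.0 CPM in DMSO (49.7 to 71.1), 757 with AU-15330 (641 to 864), 1071 with cisplatin (848 to 1325) and 577 with the combination (440 to 629). Oasl2 supplied 47.0% to 67.7% of it in every library. Oas2 and Oas3 supplied a median of 18.6% and 11.4% with cisplatin, but at most 1.26% and 0.973% in any library of the other groups. Oas1c supplied 11.5% in DMSO and 1.04% with cisplatin.

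Per kilobase of exon, the median levels with cisplatin were ordered Oasl2 (82.7 CPM per kb), Oasl1 (55.3), Oas2 (46.0), Oas3 (17.5), Oas1a (16.7), Oas1b (12.6), Oas1c (4.33) and Oas1g (3.39). Neighbours in this order whose libraries overlapped were Oasl1 and Oas2, Oas3 and Oas1a, Oas1a and Oas1b, and Oas1c and Oas1g. With the combination the order was Oasl1 (63.5 CPM per kb), Oasl2 (53.9), Oas1a (11.6), Oas1c (10.5), Oas1b (9.51), Oas1g (0.725), Oas2 (0.273) and Oas3 (0.139). Here Oasl1 and Oasl2 overlapped, as did Oas1a, Oas1c and Oas1b, and Oas2 went from the third place to the next to last.

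**Figure D3:**
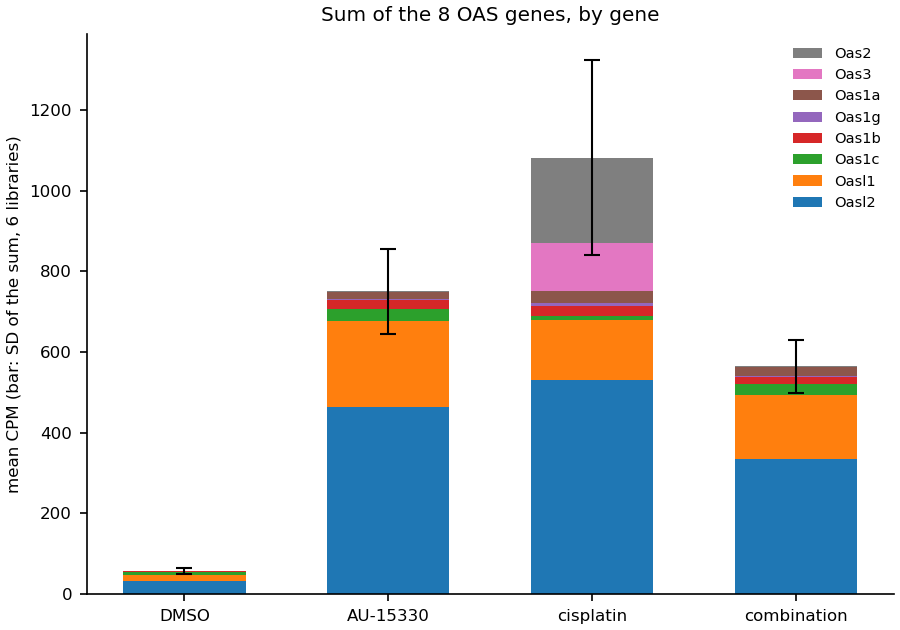
Mean CPM of the 8 OAS genes stacked by treatment, with a bar for the SD of the sum over 6 libraries. Oas2 and Oas3 form a visible layer with cisplatin alone, of 212 and 119 CPM on average, and Oasl2 is the largest layer in all 4 groups.

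Within the cisplatin group, libraries of replicates 4 to 6 stood above those of replicates 1 to 3. Oas2 measured 132 ± 2.28 CPM (SD, n = 3) in replicates 1 to 3 and 292 ± 18.3 in replicates 4 to 6, and Oas3 84.7 ± 12.7 and 153 ± 5.17. In this group 6 of the 8 members, all but Oas1c and Oasl1, did not overlap between the sets and were higher in replicates 4 to 6, as were 17.5% of tested genes. With AU-15330, 5 of the 8 did not overlap between the sets. Oasl1 (152 ± 25.0 CPM in replicates 1 to 3 and 271 ± 9.22 in replicates 4 to 6) and Oasl2 were higher in replicates 4 to 6, as were 16.3% of tested genes, and Oas1c, Oas1g and Oas2 were lower, as were 16.2%. With the combination Oas1a, Oas1b and Oas1g were higher in replicates 4 to 6 (9.94% of tested genes), and in DMSO Oas2 was higher (10.2%) and Oasl1 lower (11.6%). The labels name no batch for these numbers. Within each set, Oas2 and Oas3 with cisplatin stayed above every library of the other groups.

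Along the chromosome, the members with the large loss in the combination were the neighbours Oas2 and Oas3, while Oas1c, the next tested gene, was raised. The nearest tested genes on the outer side of Oas2 were Dtx1, 18.4 kb away, and Rasal1, 50.7 kb away, both low. Rasal1, a Ras GTPase-activating protein, averaged 0.817 ± 0.372 CPM (SD, n = 6) in DMSO, 0.113 ± 0.0865 with AU-15330, 10.8 ± 1.98 with cisplatin and 0.506 ± 0.128 with the combination. Its fitted difference between AU-15330 and DMSO was −2.78 ± 0.39, given with no call because the gene had too few reads to be tested in these 2 groups alone. It was lower in the combination than with cisplatin (−4.39 ± 0.25, adjusted p = 2.36e-14, edgeR). Dtx1, a regulator of Notch signalling, was also lower in the combination than with cisplatin (−3.32 ± 0.56, adjusted p = 9.91e-06, edgeR), from 2.03 ± 0.428 CPM to 0.199 ± 0.142. On the side of Oas1a and Oas1d the nearest tested genes were farther off. Ptpn11, 209 kb away, encodes the phosphatase SHP2 and was higher in the combination than with cisplatin (0.33 ± 0.07, adjusted p = 0.000201, edgeR), and Rpl6, 283 kb away, encodes a ribosomal protein and was not called there (0.16 ± 0.11, adjusted p = 0.206, edgeR). Next to Oasl1, 2210016L21Rik, 4.24 kb away, rose with AU-15330 by 1.00 ± 0.07 (adjusted p = 6.48e-13, edgeR), and Sppl3, 73.2 kb away, was not called (−0.04 ± 0.07, adjusted p = 0.590, edgeR). Next to Oasl2, AU-15330 raised 1500011B03Rik, 73.5 kb away, by 0.64 ± 0.12 (adjusted p = 2.09e-05, edgeR) and Ankrd13a, 90.7 kb away, by 0.32 ± 0.05 (adjusted p = 2.66e-06, edgeR).

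**Figure D4:**
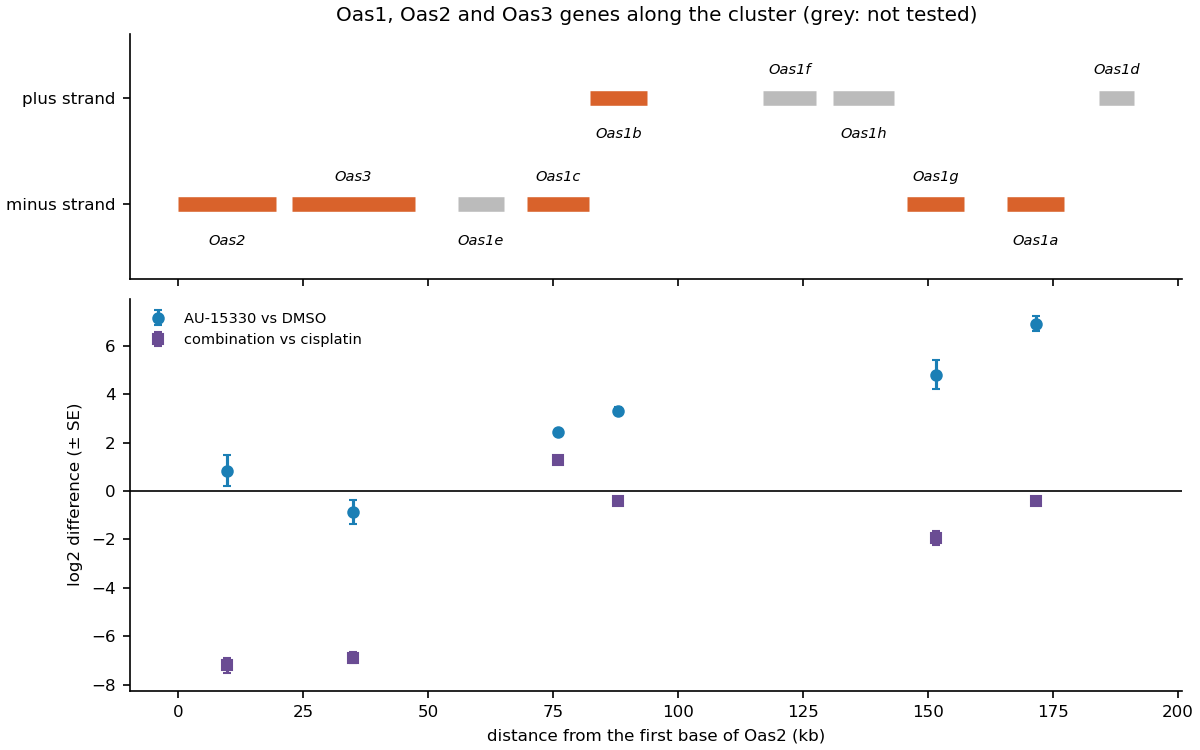
Oas1, Oas2 and Oas3 genes by distance from the first base of Oas2 in kb, by strand (upper panel), and the log2 differences of the tested ones for AU-15330 against DMSO and the combination against cisplatin, with SE bars (lower panel). Oas2 and Oas3 lie at −7.20 and −6.89 for the combination against cisplatin, and Oas1c at 1.27.

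Of 3 other genes of the 2-5A pathway, AU-15330 against DMSO raised 0 (background 36.2%) and lowered 1 (background 37.2%), with a median log2 difference of −0.09. Abce1, a ribosome recycling factor that also acts on this pathway, was called higher in the combination than with cisplatin (0.60, adjusted p = 2.11e-06, edgeR). Akap7, a phosphodiesterase acting on 2-5A, was lower with AU-15330 than in DMSO (−0.51, adjusted p = 6.56e-05, edgeR) and lower in the combination than with cisplatin (−0.54, adjusted p = 4.22e-05, edgeR). Pde12, also a 2-5A phosphodiesterase, was called in neither.

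Another list held 9 genes of interferon signalling. AU-15330 raised 5 (background 36.2%) and lowered 2 (background 37.2%) of the 9, with a median log2 difference of 0.42. Irf7, a transcription factor of the interferon response, went from 8.49 CPM in DMSO to 167 with AU-15330, 227 with cisplatin and 128 with the combination. Irf9, a subunit of the factor that binds the ISRE, went from 17.5 CPM to 124, 96.5 and 92.6 in the same order. The receptor genes were not raised, with Ifnar1 at 112 to 118 CPM on average in all groups and Ifnar2 lower with AU-15330 (−0.62, adjusted p = 3.30e-07, edgeR). In the combination against cisplatin 2 rose (Irf1 and Jak1, background 35.4%), 3 fell (Stat2, Irf7 and Ifnar2, background 32.7%), and the largest of these in size was Irf1 at 1.47. The lowest was Irf7 at −0.83.

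None of the 20 interferon genes searched had enough reads to be tested. Ifnb1 had 24 reads over the 6 cisplatin libraries, 0 in DMSO, 2 with AU-15330 and 4 with the combination. Ifne, an epithelial interferon, had 10 reads in DMSO, 47 with AU-15330, 8 with cisplatin and 24 with the combination.

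Among 9 genes of double-stranded RNA sensing, 8 had enough reads to be tested in AU-15330 and DMSO alone, all but Zbp1. Of these AU-15330 raised 6 (background 36.2%) and lowered 1 (Mavs, background 37.2%). Ddx58 (RIG-I), Ifih1 (MDA5), Dhx58 (LGP2), Eif2ak2 (PKR) and Adar were raised by either drug, with Dhx58 at 2.54 CPM in DMSO, 50.9 with AU-15330, 32.4 with cisplatin and 32.6 with the combination. In the combination against cisplatin, 4 of the 9 were called higher (background 35.4%) and 3 lower (background 32.7%). Those higher were Ddx58 (0.42), Ifih1 (0.38), Eif2ak2 (0.31) and Tlr3. Those lower were Mavs (−0.44), Zcchc3 (−0.46) and Zbp1, and Dhx58 and Adar were not called. Zbp1, a sensor of Z-form nucleic acids, resembled Oas2 and Oas3, at 0.0310 CPM in DMSO, 0.184 with AU-15330, 12.2 with cisplatin and 0.834 with the combination (against cisplatin −3.85, adjusted p = 2.02e-13, edgeR). Tlr3, the endosomal sensor, had the largest of the 4 rises in the combination over cisplatin (2.08, adjusted p = 1.68e-13, edgeR), a comparison in which Oas1c was also called higher.

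**Figure D5:**
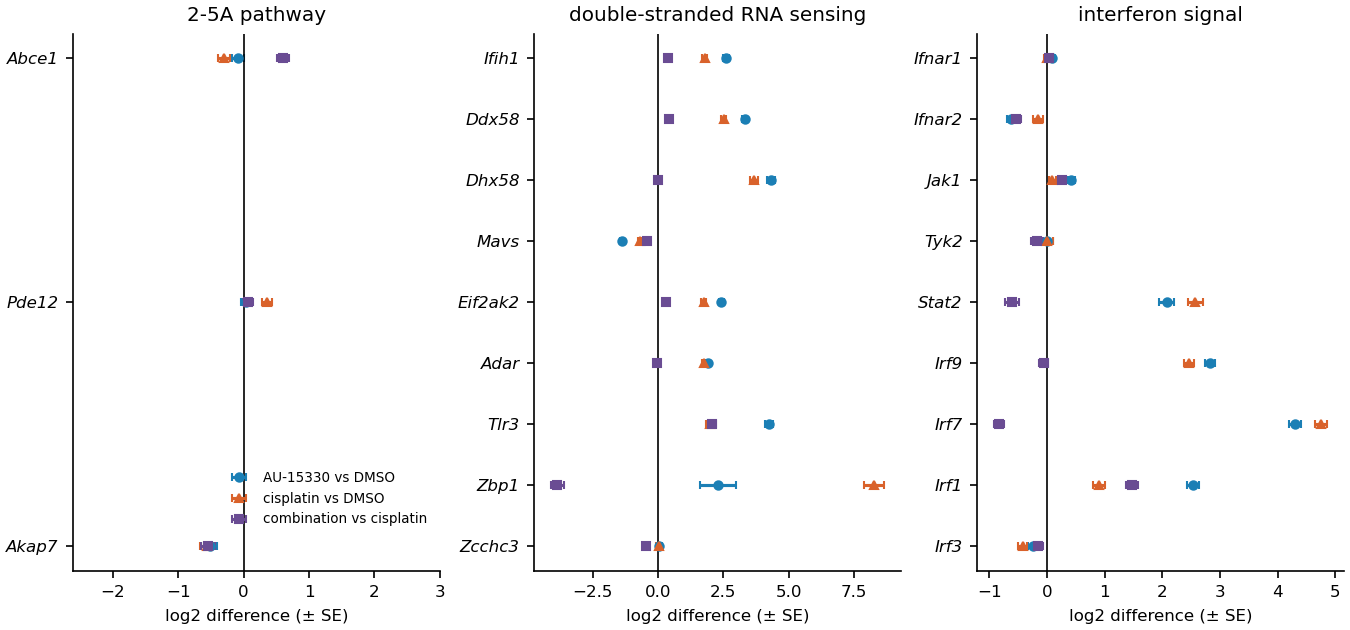
Log2 differences with SE bars for the tested genes of 3 lists (2-5A pathway, double-stranded RNA sensing, interferon signal) in 3 comparisons. Irf7 lies at 4.30 for AU-15330 against DMSO, and Zbp1 is the gene with the lowest value for the combination against cisplatin (−3.85).

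The genes most like the family over the 24 libraries were found by the root mean square difference between centred log2 CPM values. For the mean of the 8 members they were Gbp9 (0.455), Bst2 (0.50), Ifit2 (0.519), Mx2 (0.560) and Gm12250 (0.650). By gene, the closest were Usp18 to Oas1a (0.428), Parp14 to Oas1b (0.219), Tmem106a to Oas1c (0.158), Ifit2 to Oas1g (0.498), Igtp to Oasl1 (0.359) and Irgm2 to Oasl2 (0.286). For Oas2 and Oas3 the closest gene was the other of the pair (0.871), a value larger than for the remaining members.

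Markers were compared for the origin of the cells and for other cell types. Of 10 markers of ovarian surface epithelium and mesothelium 9 were in the table, and their summed level was 3514 to 5312 CPM in DMSO, 1018 to 1150 with AU-15330, 4191 to 4867 with cisplatin and 1223 to 1404 with the combination. AU-15330 lowered the 7 that had enough reads to be tested in AU-15330 and DMSO alone (background 37.2%), among them Krt19 (keratin 19), from 1783 CPM to 7. The marker sum was also lower in the combination than with cisplatin, the comparison in which Oas2 and Oas3 were lost. In DMSO it was high while both genes were low. The part of the markers' fall in the loss of Oas2 and Oas3 was not tested. Of 8 leukocyte markers the macrophage-associated Cd68 was the sole tested gene (11.8 CPM in DMSO, 34.8 with AU-15330, 9.25 with cisplatin and 33.7 with the combination), and Ptprc, Csf1r, Adgre1, Cd3e and Ncr1 averaged at most 0.0786 CPM in any group. Itgam averaged at most 0.0835 CPM, and Itgax 0.00898 CPM in DMSO, 0.0234 with AU-15330, 0.113 with cisplatin and 0.128 with the combination. The leukocyte sum was 6.46 to 53.2 CPM over all libraries. The sum of 4 endothelial markers was 8.51 to 12.8 CPM with cisplatin and at most 4.28 in the other groups, nearly all from Pecam1, and Cdh5 and Kdr averaged at most 0.0926 CPM. Tek averaged 0.0149 CPM in DMSO, 0.0221 with AU-15330, 0.270 with cisplatin and 0.0844 with the combination, and the part of these markers in the results was not tested.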

How the data were processed

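The authors deposited a table of raw read counts per gene from 48 lane columns, 2 for each of 24 libraries of poly(A)-selected, directional RNA, sequenced as single reads of 70 bases. The submitters' processing notes name STAR 2.7.1a, DESeq2 1.36.0 and the build mm10. The counting tool, its annotation and its use of strand are not given in the sources used here. Lanes were summed, which was checked: the χ² per degree of freedom was 1.36 to 1.46 between lanes. Between replicates of a group its lowest value was 2.30 and its median 25.9.

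Counts were scaled by TMM, filtered by filterByExpr (12941 of 25229 genes kept) and fitted in edgeR 4.0.16 (R 4.3.3) with 4 group means and 20 residual degrees of freedom. Quasi-likelihood tests were adjusted by Benjamini-Hochberg over all tested genes at 0.05. Alternatives were DESeq2 1.42.0, its size factors, no low-count filter, a required fold above 1.5, the replicate number as a block, only the 2 groups compared, and each replicate number left out. Gene positions and transcripts came from GENCODE (GRCm38, the same build as mm10).

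Members, gene lists, motifs and the rule for named genes (all members, the other Oas1 rows, list genes on which a result turns or that are extremes of their list, and the closest genes by root mean square) were chosen with earlier results of these data known. Neighbouring genes were the 2 nearest tested ones on each side, within 300 kb. A few genes of the lists are not reported here, and the list counts leave them out.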

Additional observations from a re-analysis of the deposited data

Results flagged for a closer look

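In 2 of 32 sets of 6 libraries (8 genes in 4 groups), 1 library stood apart from the rest by Dixon's criterion, where chance gives about 1 in 20, or 1.6. For Oas1g in DMSO, replicate 5 lay at 0.162 CPM (3 reads) and the next library at 0.0483, a gap of 0.701 of the range. For Oasl2 in the combination, replicate 1 was the lowest at 258 CPM and the next was 332, a gap of 0.627 of the range.

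For all 8 members the effect of AU-15330 on the log2 scale differed between cells with and without cisplatin. The difference (with minus without) was −7.34 for Oas1a, −3.72 for Oas1b, −1.16 for Oas1c, −6.76 for Oas1g, −8.05 for Oas2, −6.02 for Oas3, −3.70 for Oasl1 and −4.47 for Oasl2. The family was chosen with the value of Oas2 known.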

How the results depend on the processing

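For single members, 774 values were recomputed under 14 alternatives, of which 734 kept their direction and their side of the threshold, 13 passed it newly, 22 no longer passed it and 5 changed sign. The differences of Oas2 and Oas3 between the combination and cisplatin were −7.38 to −7.04 and −7.01 to −6.73 under the planned ones. With a fold above 1.5 required, 4 members were called between the combination and cisplatin (29.4% of all tested genes, in either direction) and 1 between the combination and AU-15330 (6.51%). Leaving out each replicate number in turn gave 5 to 7 and 2 to 4 calls in these comparisons (63.4% to 69.2% and 34.7% to 43.4% of tested genes), the 2 without replicate 6.

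Same-numbered libraries deviated together with r over 0.1 in 23 of 36 pairs (median 0.111, lowest −0.133), and 10 of 24 libraries were closest to their own number. The median was −0.034 for different numbers, so libraries of the same number were more alike in the median. The main fit did not take the numbers as pairs, and the replicate block was fitted as an alternative. With the replicate block, 7 members were called between the combination and cisplatin (71.8% of tested genes) and 5 between the combination and AU-15330 (47.8%), Oas1b being added (−0.31 ± 0.10). The block changed no other call.

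Fits of replicates 1 to 3 or 4 to 6 alone were added after seeing the data. In replicates 1 to 3, the combination against AU-15330 gave 0.0018 for Oasl1, −0.047 for Oas1a, −0.049 for Oas1g and −0.52 for Oas1b (the last passing the threshold there and not over all replicates), and cisplatin against AU-15330 gave −0.25 for Oas1b. In replicates 4 to 6, AU-15330 against DMSO gave −0.70 for Oas2 and −1.29 for Oas3, with no call since both had too few reads. In the same replicates, the combination against AU-15330 gave 0.35 for Oas1a and 1.11 for Oas1g, and cisplatin against AU-15330 gave 0.42 for Oas1b and 0.29 for Oasl2. The last 4, and the value of Oas3, passed the threshold there and not over all replicates. For the summed Oas1 rows, the combination against cisplatin was 0.11 in replicates 1 to 3 and −0.28 in 4 to 6, the combination against AU-15330 was 0.050 in 4 to 6, and cisplatin against AU-15330 was −0.45 in 1 to 3, 0.33 in 4 to 6, and −0.11 to 0.092 with each replicate number left out. It was 0.033, 0.044 and 0.092 without replicates 1, 2 and 3. The cause was not tested.

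At the depth of these libraries the DMSO levels of Oas1a, Oas1g, Oas2 and Oas3 rest on 18, 5, 36 and 46 reads over 6 libraries, so their fold differences from DMSO are less precise than those of the other members.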
